A study of Homo sapiens with 6 samples.

Results

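The cytosolic heat shock genes described here are *HSPA1A*, *HSPA1B*, *HSPA8*, *HSPH1*, *HSP90AA1*, *HSP90AB1*, *DNAJB1*, *HSPB1*, *HSF1* and *BAG3*. They were chosen by symbol, and all 10 were found among the 19225 genes listed for SW480, an established human line from a colon tumour that carries mutant p53. Transcripts were sequenced from 3 control libraries and from 3 libraries of cells transiently transfected with plasmids for MDM4, numbered 1 to 3 in each group, with all cells kept at 37 ℃ in 5% CO2. In the sample labels this MDM4 group is named exercised, and they give plasmid transfection as the treatment for every library, but they do not state what the control plasmid carried. The table names its columns by a letter with a number, taken here to mean group and replicate. Nothing in the labels says that the replicates came from separate cultures, so the p-values measure the spread between these libraries, which may be technical.

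Heat shock proteins of the cytosol are chaperones that bind unfolded protein chains and help them fold, stay soluble or be degraded. HSP70 proteins bind short hydrophobic stretches and are driven through their ATP cycle by J-domain proteins and nucleotide exchange factors, and HSP90 proteins receive partly folded clients from them, mutant p53 among these. The transcription factor HSF1 raises the transcription of many of these genes on heat or proteotoxic stress by binding heat shock elements, repeats of the unit GAA in alternating orientation. MDM4 is a negative regulator of p53.

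The heat shock element was searched in promoter sequences of RefSeq on GRCh38.p14, each reaching from 250 bases before to 50 bases after a start site. The table held 14 promoters of 9 of the 10 genes, with *HSF1* the gene that was not matched. The element of 3 units was searched as GAANNTTCNNGAA or TTCNNGAANNTTC, which are reverse complements, so that both strands were covered. It occurred in 172 of 35116 promoters (0.490%) and in 3 of the 14 promoters of these genes, those of *HSPA8*, *HSP90AA1* and *HSP90AB1*. The shorter element of 2 units, GAANNTTC or TTCNNGAA, lies inside each longer match as well. It occurred in 4737 of 35116 promoters (13.5%) and in 8 of the 14 promoters, which belong to 7 of the 9 genes. A match describes the letters only, and the absence of a match in *HSPH1* and *BAG3* says only that these letters are not in this window. The same holds for the longer element at genes with only the shorter match, since a unit with a differing base was not counted.

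The 5 matches of 3 units are shown because they lie at *HSPA8* and at both HSP90 genes, the 3 most abundant of the 10 transcripts, of which *HSPA8* differed in replicate 3 while the HSP90 genes were not called there. Each is read 5′ to 3′ on the strand of the gene, with the match in capitals. The *HSPA8* matches lie on the minus strand at chr11:123062167-123062203 and chr11:123062342-123062378 and start 55 and 230 bases before the start site. The *HSP90AA1* match lies on the minus strand at chr14:102087108-102087144 and starts 88 bases before it. The *HSP90AB1* matches lie on the plus strand at chr6:44247766-44247802 and chr6:44247819-44247855 and start 165 and 112 bases before it.
HSPA8 at 55 bases: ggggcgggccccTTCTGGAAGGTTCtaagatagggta
HSPA8 at 230 bases: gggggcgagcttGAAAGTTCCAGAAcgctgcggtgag
HSP90AA1 at 88 bases: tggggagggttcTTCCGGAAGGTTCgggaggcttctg
HSP90AB1 at 165 bases: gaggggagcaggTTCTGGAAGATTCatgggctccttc
HSP90AB1 at 112 bases: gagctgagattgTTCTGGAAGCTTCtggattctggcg

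Matches of 2 units are shown for *HSPA1A* and *HSPA1B*, which share theirs, and for *HSPB1*, which was called in replicate 3. They lie on the plus strand at chr6:31815425-31815456, chr6:31827621-31827652 and chr7:76302479-76302510, and they start 106, 105 and 182 bases before the start site.
HSPA1A at 106 bases: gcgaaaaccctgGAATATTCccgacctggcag
HSPA1B at 105 bases: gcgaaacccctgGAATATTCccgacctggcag
HSPB1 at 182 bases: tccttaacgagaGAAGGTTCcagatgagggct

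Expression was deposited as FPKM, which corrects the reads of a gene for gene length and library depth, so that levels can be compared between genes per length. The reads recovered on genes numbered 32921704 to 44562216 per library. The colon epithelial markers *EPCAM* (156 to 167 FPKM), *KRT8* (1550 to 1876), *KRT18* (1482 to 1760), *CDH1* (19.6 to 23.6), *VIL1* (1.88 to 4.08) and *CDX2* (9.99 to 14.2) were detected in each library. The leukocyte marker *PTPRC* had at most 0.0142 FPKM in a library, the endothelial marker *PECAM1* at most 0.0201 and *COL3A1* at most 0.0543. By contrast, *CD68* (4.26 to 5.01) and *COL1A1* (1.60 to 3.80) were expressed. In the control libraries, in the order of their numbers, *MDM4* was 6.35, 7.09 and 5.13 FPKM, and in the MDM4 libraries it was 188, 185 and 56.3 FPKM. The groups did not overlap, and the MDM4 library was the higher by 29.7-, 26.1- and 11.0-fold in replicates 1 to 3. Its log2 difference was 4.33 (SE 0.43) with a limma adjusted p of 0.161, and 4.77e-05 under a fit that takes the replicate number as a block. The libraries numbered 3 stood apart from the others in both groups, which was known from earlier results of these data and is the reason for the second comparison below.

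All 10 genes were expressed in the 6 libraries, at means from 8.53 to 1171 FPKM. *HSPA8*, the constitutive HSP70 (HSC70), had a mean of 1171 FPKM over the 6 libraries and ranked 20 among the 12884 genes tested. *HSP90AB1*, the constitutive HSP90, followed at 1155 FPKM and rank 21, and *HSP90AA1*, its more inducible paralogue, at 955 FPKM and rank 33. The stress-inducible HSP70 genes were far lower as deposited, with *HSPA1B* at 33.2 FPKM (rank 2462) and *HSPA1A* at 8.53 FPKM (rank 7414). These levels carry a limit of counting that is given below.

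Between these lay the cochaperones and the small heat shock protein. *HSPB1*, which encodes the small heat shock protein HSP27, had a mean of 250 FPKM (rank 193). *DNAJB1*, the J-domain protein HSP40 that delivers clients to HSP70, had 84.7 FPKM (rank 761), and *HSPH1*, the HSP110 exchange factor of HSP70, had 70.8 FPKM (rank 977). *HSF1* itself had 36.2 FPKM (rank 2246), and *BAG3*, the exchange factor that links HSP70 to selective autophagy, had 29.7 FPKM (rank 2801).

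The order of these levels was the same in all 6 libraries for 7 of the 9 neighbouring pairs, as the plot of levels by library shows. *HSPA8* exceeded *HSP90AB1* in 4 of 6 libraries only, with ratios of 0.790 to 1.14, because it was the lower of the pair in both libraries numbered 3. *HSF1* exceeded *HSPA1B* in 5 of 6 libraries, with ratios of 0.984 to 1.19. *HSPA1B* exceeded *BAG3* in each library, by 1.02 to 1.27, although the ranges of these genes overlapped. *HSP90AB1* exceeded *HSP90AA1* by 1.17 to 1.26 and *DNAJB1* exceeded *HSPH1* by 1.16 to 1.23, narrow ratios that were kept in each library.

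**Figure D1:**
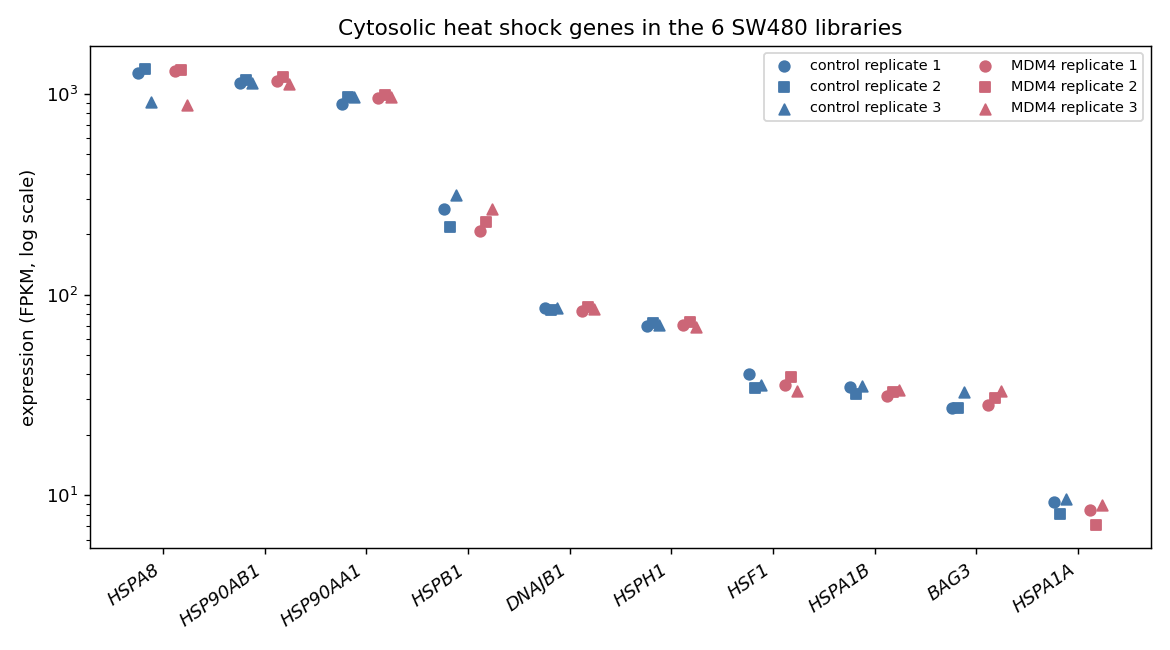
FPKM (log axis) of each of the 10 genes in each of the 6 libraries, ordered by mean level, with control libraries in blue, MDM4 libraries in red and a marker shape for each replicate number. For *HSPA8* both triangles, replicate 3 of either group, lie at 913 and 885 FPKM, below the other 4 libraries at 1274 to 1335.

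Some of these levels carry a limit of counting. The genes *HSPA1A* (chr6:31815464-31817946) and *HSPA1B* (chr6:31827735-31830255) are single-exon neighbours on the plus strand of GRCh38. Their coding sequences of 1926 bases differ at 4 bases (99.8% identity), with an identical stretch of 1709 bases, and how the authors assigned reads that match both is not given in the sources used here. The ratio of *HSPA1B* to *HSPA1A* ran from 3.66 to 4.63. This ratio, the levels and ranks of both genes, and any ratio that holds them should be read as uncertain. Reads were 596 to 1000 per library on *HSPA1A* and 2792 to 3890 on *HSPA1B*, against 65240 to 127113 on *HSPA8*. The other genes are spread over the genome, *HSPA8* at chr11:123057489-123063230 and *HSPH1* at chr13:31134974-31162388 on minus strands, *HSP90AA1* at chr14:102080738-102139699 (minus) and *HSP90AB1* at chr6:44246166-44253888 (plus). *DNAJB1* lies at chr19:14514770-14529770 (minus), *HSPB1* at chr7:76302544-76304295 (plus), *BAG3* at chr10:119651370-119677819 (plus) and *HSF1* on chromosome 8.

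The first comparison, MDM4 against control, asked whether MDM4 plasmids changed the transcripts of these chaperones. None of the 10 genes was called, with limma adjusted p-values of 1.0 for each, log2 differences between -0.17 (*HSPB1*) and 0.079 (*BAG3*), and group values that overlapped for each gene. Over all 12884 tested genes 0 (0%) were called and 222 had an unadjusted p under 0.05, and voom on the recovered reads called 0 with 233 under that level. *MDM4* itself was not called by limma without the block (adjusted p of 0.161), although its groups did not overlap. The absence of calls in that fit thus does not show that the 10 transcripts were unchanged. Under the replicate block limma called 2 genes (1624 with an unadjusted p under 0.05) and voom called 29, and replicates 1 and 2 alone gave 74, with none of the 10 heat shock genes among those called in these fits. Groups that did not overlap were found for 0 of the 10 genes against 883 of all tested genes (6.85%). In bulk RNA, fewer cells that express a gene and less RNA per cell cannot be told apart.

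Values are given in the order of replicates 1 to 3, the control first. *HSPA8* was 1274, 1335 and 913 FPKM against 1301, 1319 and 885 with MDM4. The group means were 1174 ± 228 (SD, n = 3) and 1168 ± 245 (n = 3) FPKM, a log2 difference of -0.011 (SE 0.19, 95% interval -0.45 to 0.43) with an exact permutation p of 0.90, where 0.10 is the smallest two-sided p that 3 against 3 libraries allow. The spread within each group came from its library numbered 3, and same-numbered libraries lay close together, with MDM4 to control ratios of 1.02, 0.988 and 0.970 in replicates 1 to 3. Under the replicate block the interval narrowed to -0.10 to 0.077, that is, a fold between 0.934 and 1.05.

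*HSPA1A* was 9.20, 8.05 and 9.53 FPKM against 8.46, 7.07 and 8.90. It was the lower of each same-numbered pair in the MDM4 library, with ratios of 0.919, 0.878 and 0.934, but the groups overlapped and the log2 difference of -0.13 (SE 0.13) was within the spread between replicates (exact permutation p = 0.400). *HSPA1B* was 34.5, 32.0 and 34.9 FPKM against 31.3, 32.7 and 33.5, a log2 difference of -0.056 (SE 0.074, exact permutation p = 0.300) whose direction turned in replicate 2. Neither inducible HSP70 gene therefore differed beyond the spread, and the 95% interval of *HSPA1A* reached from -0.44 to 0.17. *HSPH1*, which acts on both kinds of HSP70, was 69.5, 72.0 and 70.2 FPKM against 70.6, 73.3 and 68.8 (log2 difference 0.0064, SE 0.06).

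The HSP90 genes, whose proteins mature kinases, steroid receptors and other clients, differed little between the groups. *HSP90AA1* was 896, 970 and 966 FPKM against 951, 987 and 961 (log2 difference 0.035, SE 0.05, 95% interval -0.083 to 0.15). *HSP90AB1* was 1131, 1168 and 1134 FPKM against 1161, 1214 and 1120 (log2 difference 0.026, SE 0.048, 95% interval -0.087 to 0.14). For both paralogues the MDM4 library was the higher in replicates 1 and 2 and the lower in replicate 3, by at most 1.06-fold. Over the 6 libraries their coefficients of variation were 3.30% and 2.97%, against 18.1% for *HSPA8*.

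*DNAJB1* varied least of the 10, with a coefficient of variation of 1.68%. It was 85.6, 83.7 and 85.5 FPKM against 82.5, 86.4 and 84.8 (log2 difference -0.0066, SE 0.057, 95% interval -0.14 to 0.12). *BAG3* was 27.2, 27.1 and 32.5 FPKM against 28.2, 30.4 and 33.0, the MDM4 library being the higher of each same-numbered pair, by 1.04-, 1.12- and 1.01-fold. This difference of 0.079 (SE 0.10, exact permutation p = 0.50) was smaller than the gap between replicate 3 and the others within each group.

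*HSPB1* was 267, 218 and 312 FPKM against 207, 229 and 267. The MDM4 to control ratios of the numbered pairs were 0.778, 1.05 and 0.855, so that the direction was not shared by the pairs. The log2 difference of -0.17 (SE 0.14, 95% interval -0.50 to 0.15) was the largest in size of the 10, and with the replicate block its interval was -0.34 to -0.012 with a limma adjusted p of 0.379. *HSF1* was 40.1, 34.2 and 35.4 FPKM against 35.6, 39.0 and 33.0, lower with MDM4 in replicates 1 and 3 and higher in replicate 2 (log2 difference -0.029, SE 0.10).

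As a list, 4 of the 10 genes had positive and 6 negative differences, with a median of -0.0085 against -0.0091 over all tested genes. The median size of the difference was 0.032 for the 10 genes and 0.084 for all tested genes. Between same-numbered libraries, 5 genes were higher with MDM4 in replicate 1, 8 in replicate 2 and 1 in replicate 3, so that the list had no direction shared by the 3 pairs. The intervals of the 10 genes reached from -0.50 to 0.43, so smaller differences of *HSPA8* and *HSPB1* were not detectable with 3 against 3 libraries and no block.

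The second comparison set the libraries numbered 3 against those numbered 1 and 2, with group as a term, and here the heat shock genes did not move together. *HSPA8* fell to 0.688 of its level in replicates 1 and 2, *HSPB1* rose 1.26-fold and *BAG3* rose 1.16-fold, while both HSP90 genes, both inducible HSP70 genes, *HSPH1*, *DNAJB1* and *HSF1* were not called. The 3 genes called of 10 stand against 5685 of all 12884 tested genes (44.1%), of which 3808 (29.6%) were higher and 1877 (14.6%) lower in replicate 3. None of the 10 was both called and past an absolute log2 difference of 1, as were 327 of all tested genes (2.54%). The values of replicate 3 did not overlap those of replicates 1 and 2 for 2 of the 10 genes, *HSPA8* and *BAG3*, against 7181 of all tested genes (55.7%). A share of called genes near or below that of all genes is no result about the list, and the account here is of the single genes. Because the libraries numbered 3 were already known to stand apart, the p-values and intervals of this comparison describe the gap and are no independent evidence for it. The fit also counts both libraries numbered 3 as separate replicates, which the labels do not establish.

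*HSPA8* was 913 FPKM in control replicate 3 and 885 in MDM4 replicate 3, against 1307 ± 26.1 (SD, n = 4) in the other libraries. The gap was far larger than the spread among the other 4 libraries and was alike in both groups, with ratios of 0.700 (control) and 0.676 (MDM4). The log2 difference was -0.54 (SE 0.042, 95% interval -0.63 to -0.45) with a limma adjusted p of 1.58e-05. The exact permutation p was 0.133, the smallest that 2 against 4 libraries allow where the two-sided p is the smaller one-sided p doubled. Of the 20 tested genes with a mean FPKM at or above its own, *HSPA8* included, 9 were called lower and 0 higher in replicate 3. Over all tested genes 14.6% were called lower and 29.6% higher. The median of the 20 genes was -0.076, against 0.092 over all tested genes, and none fell further than *HSPA8*. Among all tested genes 432 were called lower with a larger difference.

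*HSPB1* was 312 FPKM in control replicate 3 and 267 in MDM4 replicate 3, against 230 ± 25.8 (SD, n = 4) elsewhere. In each group replicate 3 was the highest library, by 1.29-fold over the mean of replicates 1 and 2 in the control and 1.22-fold in the MDM4 group, but control replicate 1, also at 267 FPKM, lay marginally above MDM4 replicate 3, so the values overlapped. The log2 difference was 0.33 (SE 0.075, 95% interval 0.16 to 0.50) with a limma adjusted p of 0.00518. It was 0.29 with an adjusted p of 0.0765 without control replicate 3. Genes called higher with a larger difference numbered 2678.

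*BAG3* was 32.5 and 33.0 FPKM in the libraries numbered 3, against 28.2 ± 1.52 (SD, n = 4) elsewhere. Both lay above the other 4 libraries, 1.20-fold above the mean of replicates 1 and 2 in the control and 1.13-fold in the MDM4 group. The log2 difference was 0.22 (SE 0.061, 95% interval 0.082 to 0.35) with a limma adjusted p of 0.0151. This call was the least firm of the 3, being lost without control replicate 3 (0.17, adjusted p = 0.234), MDM4 replicate 1 (0.20, adjusted p = 0.0612) or MDM4 replicate 3 (0.26, adjusted p = 0.0901), and under median ratio scaling (0.11, adjusted p = 0.158).

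**Figure D2:**
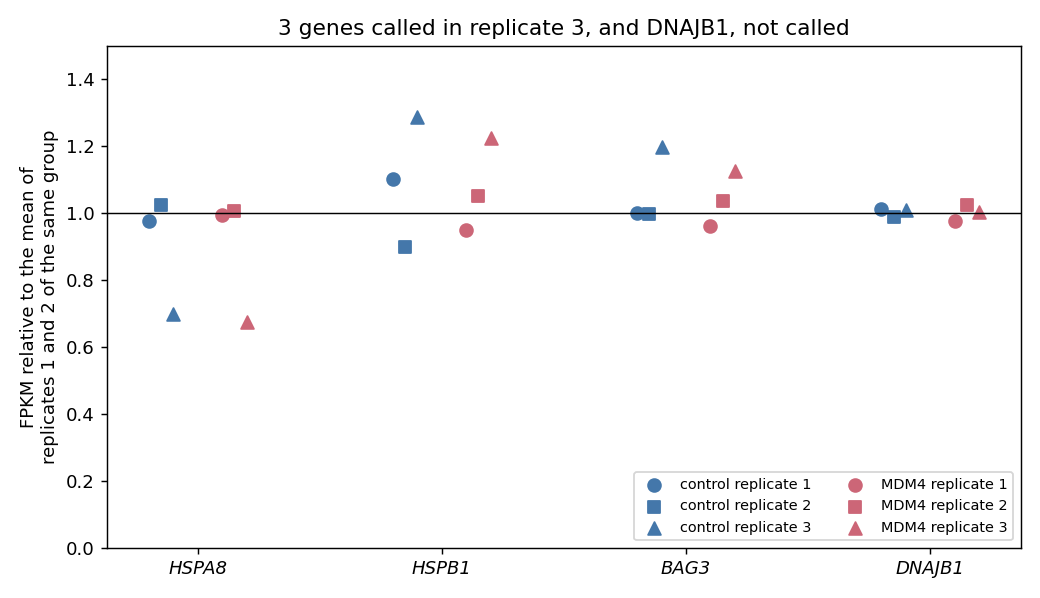
FPKM of *HSPA8*, *HSPB1*, *BAG3* and *DNAJB1* in each library, divided by the mean of replicates 1 and 2 of the same group, on a linear axis from 0, with a point per library and no error bar. *HSPA8* lies at 0.700 and 0.676 in the libraries numbered 3 (triangles), *HSPB1* at 1.29 and 1.22, *BAG3* at 1.20 and 1.13, and *DNAJB1*, which was not called, at 1.01 and 1.0.

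The remaining 7 genes were not called in replicate 3 (limma adjusted p from 0.170 for *HSPA1A* to 0.882 for *DNAJB1*). The difference was 0.17 (SE 0.10) for *HSPA1A*, 0.069 (SE 0.06) for *HSPA1B* and -0.12 (SE 0.075) for *HSF1* on the log2 scale. For the HSP90 genes the 95% intervals were narrow, 0.943- to 1.09-fold for *HSP90AA1* and 0.904- to 1.03-fold for *HSP90AB1*, so that a fall of the size seen in *HSPA8* lay outside them. The same held for *HSPH1* (0.901- to 1.05-fold) and *DNAJB1* (0.934- to 1.09-fold).

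The share of *HSPA8* in the summed level of the 10 genes was lower in replicate 3 in both groups. The summed level of the 10 genes was 3833, 3948 and 3593 FPKM in the control libraries, in the order of their numbers, and 3877, 4018 and 3495 FPKM with MDM4. *HSPA8* made up 25.4% and 25.3% of this sum in the libraries numbered 3 and 32.8% to 33.8% in the others, and the 2 HSP90 genes together made up 58.5% and 59.6% against 52.9% to 54.8%. The ratio of *HSPA8* to the summed HSP90 genes was 0.435 and 0.425 in the libraries numbered 3 and 0.599 to 0.629 in the others. The ratio of constitutive to inducible HSP70, *HSPA8* over *HSPA1A* plus *HSPA1B*, was 20.5 and 20.9 against 29.1 to 33.3, with no overlap. Its size is uncertain, because the assignment of reads shared by *HSPA1A* and *HSPA1B* is not given. In the opposite sense, *HSPB1* over *HSPA8* was 0.342 and 0.301 against 0.160 to 0.210. These ratios are within a library, so the scaling between libraries does not enter them, and they are given as descriptions with no test. Each share or ratio holds *HSPA8*, alone or in the sum, so they largely restate its fall. The HSP90 genes themselves were at 1.01-fold (*HSP90AA1*) and 0.965-fold (*HSP90AB1*) in replicate 3, neither called.

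The scaling between libraries does bear on the single differences. The median over all tested genes was 0.092 in replicate 3 on the FPKM scale, 0.017 after quantile normalization and -0.01 under median ratio scaling. The called genes were 67.0% higher and the rest lower on the FPKM scale, 51.2% higher after quantile normalization and 45.4% under median ratio scaling. *HSPA8* was called lower in 14 of 14 alternatives, with differences of -0.64 to -0.51. *HSPB1* was called higher in 13 of 14 (0.23 to 0.39) and *BAG3* in 10 of 14 (0.11 to 0.26). Under median ratio scaling *HSPH1* (-0.14, adjusted p = 0.0466), *HSP90AB1* (-0.16, adjusted p = 0.0141) and *HSF1* (-0.22, adjusted p = 0.0308) were also called lower, and the uncalled differences of *HSPA1B*, *HSP90AA1* and *DNAJB1* turned to -0.035, -0.085 and -0.093.

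**Figure D3:**
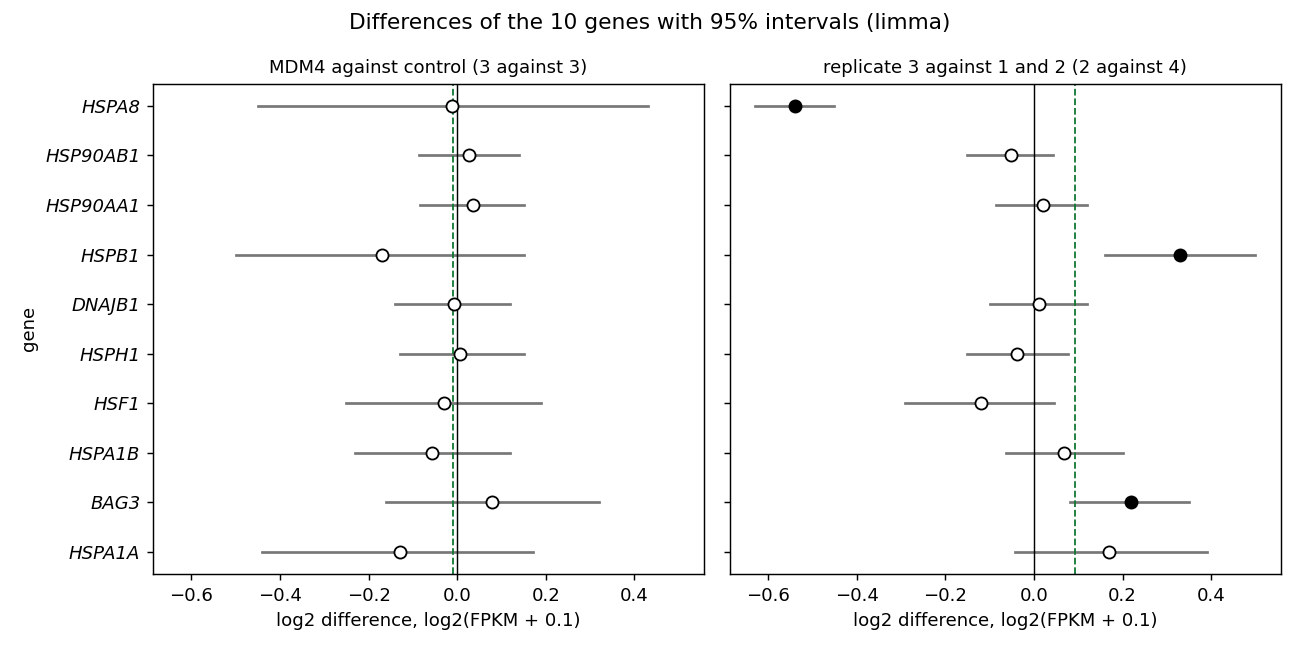
Log2 difference of each of the 10 genes on the log2(FPKM + 0.1) scale with its 95% interval from limma, for MDM4 against control (left) and replicate 3 against replicates 1 and 2 (right). Filled points are called at an adjusted p under 0.05, and the dashed line is the median of all tested genes, -0.0091 and 0.092. No gene is called on the left, and *HSPA8* (-0.54), *HSPB1* (0.33) and *BAG3* (0.22) are called on the right.

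What set the libraries numbered 3 apart is not given in the labels. *MDM4* was lower in them as well, with a log2 difference of -1.05 (SE 0.22, limma adjusted p = 0.00296). Its values overlapped (exact permutation p = 0.533), and -1.05 averages unlike groups, -0.38 in the control and -1.73 in the MDM4 group. It was 56.3 FPKM in MDM4 replicate 3 against 185 and 188 in the other MDM4 libraries. Relative to replicates 1 and 2 of its group, *MDM4* was at 0.764 in control replicate 3 and at 0.301 in MDM4 replicate 3, and *HSPA8* was at 0.700 and 0.676. The part of the *MDM4* level in the difference of *HSPA8* was not tested. The replicate number and whatever was handled together with it cannot be told apart.

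The last comparison asked whether the effect of MDM4 differed between replicate 3 and replicates 1 and 2. None of the 10 genes was called by limma, with differences between effects of -0.11 (*HSF1*) to 0.055 (*HSPA1A*), adjusted p-values of 1.0 and no gene with an unadjusted p under 0.05. Over all tested genes 25 (0.194%) were called and 293 had an unadjusted p under 0.05. The difference for *HSPA8* was -0.051 (SE 0.09, 95% interval of the fold 0.842 to 1.11). The test rests on 1 pair of libraries in replicate 3, so that its spread comes from replicates 1 and 2 alone, and its intervals for the 10 genes reached from -0.47 to 0.52.

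Other genes of the chaperone network were taken from 9 lists of 100 genes, of which 91 were tested. For MDM4 against control none of the 91 was called (limma), with a median of -0.017. The largest differences were 0.28 (SE 0.35) for *HSPA1L* and 0.17 for *HSPA13* among the other HSP70 genes, 0.16 for *DNAJB4* and -0.14 for *DNAJB2* among the J-domain genes, and -0.17 for *STUB1* and 0.16 for *CHORDC1* among the cochaperones. They were -0.073 for *HSPB11* and -0.043 for *HSPB8* among the small heat shock proteins, 0.15 for *EP300* and 0.13 for *SIRT1* among regulators of HSF1, and -0.11 for *PFDN1* and -0.10 for *PFDN4* of prefoldin. In the organelle lists they were -0.21 for *HSCB* and 0.14 for *GRPEL2* of the mitochondrion and -0.21 for *SERPINH1* and 0.16 for *DNAJB9* of the endoplasmic reticulum, and among genes of proteotoxic stress 0.19 for *HMOX1* and -0.13 for *GADD45B*. Each of these was uncalled, with a limma adjusted p of 1.0.

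In replicate 3, 17 of the 91 genes were called higher, 21 lower and 53 were not called, a share of 41.8% called beside 44.1% of all tested genes, and the median was -0.021. The lists differed in their counts, which are given as descriptions. Of 8 other HSP70 and HSP110 genes, 5 were higher and 1 lower, with a median of 0.37. Among them *HSPA12A* rose by 0.53 (SE 0.069), the testis-enriched *HSPA2* by 0.44 (SE 0.089) and *HSPA4L*, an HSP110 relative, by 0.37 (SE 0.093) on the log2 scale. *HSPA1L*, next to *HSPA1A* and similar to it in sequence, rose by 0.76 (SE 0.21, limma adjusted p = 0.0150) at a low level of 0.533 against 0.964 FPKM.

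Of the 10 J-domain genes, 3 were higher and 3 lower. *DNAJA1*, a J-domain partner of *HSPA8*, was 138, 150 and 107 FPKM against 147, 154 and 105 with MDM4. It fell to 0.724 of its level (log2 difference -0.47, SE 0.054, limma adjusted p = 1.11e-04), with both libraries numbered 3 below the rest. *DNAJC2*, which works with HSP70 at the ribosome, fell by 0.37 (SE 0.058) on the log2 scale. *DNAJB5* rose 2.32-fold, from 2.46 to 5.82 FPKM (limma adjusted p = 6.60e-05), and *DNAJB4* rose 1.52-fold, while *DNAJB1* of the same subfamily was among the genes not called.

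Of 18 cochaperones of HSP70 and HSP90, 3 were higher, 4 lower and 11 not called, with a median of -0.029. *BAG1*, an exchange factor of HSP70 like *BAG3*, fell by 0.47 (SE 0.086) on the log2 scale, and *BAG2*, which inhibits the ubiquitin ligase CHIP, fell by 0.30 (SE 0.061), whereas *BAG3* rose. *TTC4*, a partner of HSP90, fell by 0.35 (SE 0.073), and *STUB1*, which encodes CHIP, rose by 0.24 (SE 0.086, limma adjusted p = 0.0408). Of the small heat shock proteins 2 of 9 passed the filter on low values, and *HSPB8*, which forms a complex with BAG3, rose by 0.58 (SE 0.12, from 2.33 to 3.53 FPKM). The other, the more abundant *HSPB11* (28.8 to 36.3 FPKM), was not called. The HSF family and its regulators had 1 gene higher and 2 lower of 6. *HSF2* rose by 0.38 (SE 0.072), while *HSF2BP*, which binds HSF2, fell by 0.92 (SE 0.17) and the acetyltransferase gene *EP300* by 0.23 (SE 0.081), and *HSF1* was not called.

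**Figure D4:**
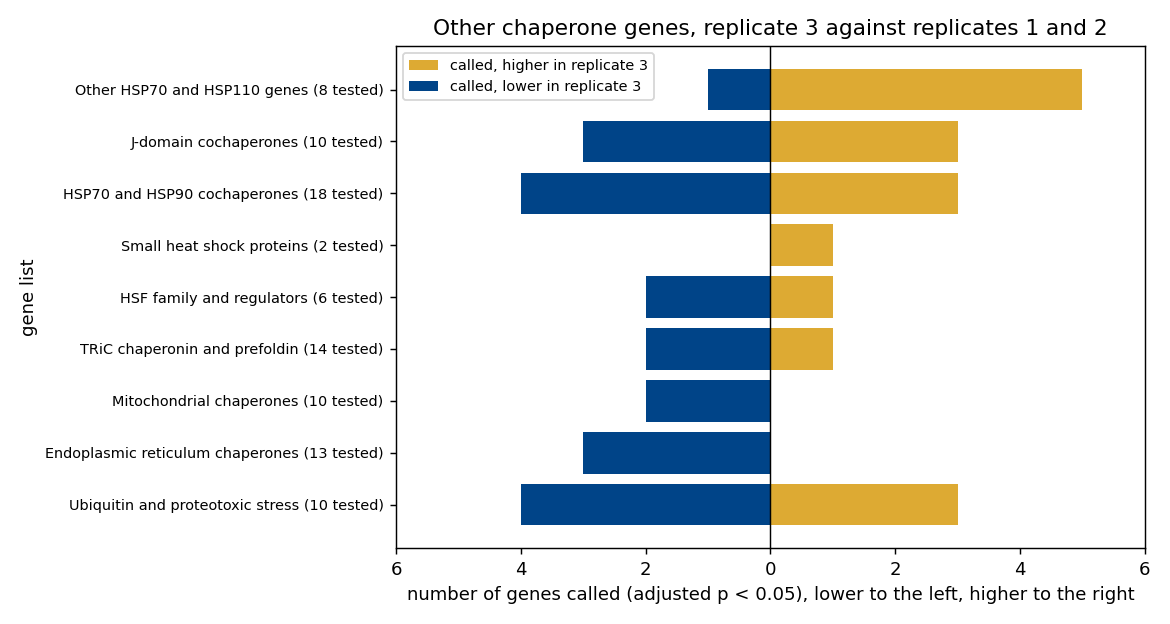
Number of genes of each chaperone list called by limma at an adjusted p under 0.05 in replicate 3 against replicates 1 and 2, with lower genes to the left and higher genes to the right of 0. The other HSP70 and HSP110 genes have 5 higher and 1 lower, while the mitochondrial (0 and 2) and endoplasmic reticulum (0 and 3) lists have 2 of 10 and 3 of 13 tested genes lower, beside 29.6% higher and 14.6% lower of all tested genes.

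The TRiC and prefoldin, mitochondrial and endoplasmic reticulum lists had called shares of 20% to 23.1%, beside 44.1% of all tested genes. Of 14 TRiC and prefoldin genes, which fold actin and tubulin, *PFDN5* rose by 0.22 and *CCT2* and *CCT6A* fell by 0.15 and 0.13 on the log2 scale, and 11 were not called. Of 10 mitochondrial chaperones 2 were lower, *GRPEL1*, the exchange factor of the mitochondrial HSP70, by 0.46 and *HSPA9*, that HSP70 itself, by 0.16. Of 13 chaperones of the endoplasmic reticulum 3 were lower, the collagen chaperone gene *SERPINH1* (-0.36), *DNAJB9* (-0.27) and *HSPA5*, the HSP70 of that compartment (-0.17). The fall of *HSPA8* was larger than that of either organelle HSP70, a description with no test of the difference.

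Of 10 genes of ubiquitin and proteotoxic stress, 3 were higher and 4 lower. *HMOX1*, the heme oxygenase induced by oxidative stress, fell to 0.585 of its level (log2 difference -0.77, SE 0.11), *GADD45B*, a gene induced by growth arrest and DNA damage, fell to 0.685 and *PPP1R15A*, the stress-induced phosphatase subunit GADD34, to 0.687. *DEDD2* rose 1.29-fold (SE of the log2 difference 0.072).

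The genes with the pattern most like that of the 10 were sought by Pearson r over the 6 libraries with their mean centred log2 level, among 5056 tested genes with an SD of at least 0.2 on the log2 scale. Among the 5 closest were *CYSRT1* (r = 0.965), *ISOC2* (0.958), *SLC27A5* (0.951) and *U2AF1L4* (0.940). The mean level of the 10 genes itself moved only between -0.03 and 0.033 on the log2 scale, so these are likenesses to a small variation. For *HSPA8*, chosen after its values were seen, the closest were *TIMM23B* and *NOP58* (r = 0.999 each) and *YRDC*, *BRD1* and *FERMT1* (0.998 each). *NOP58*, a core protein of box C/D snoRNPs, was 122 FPKM in replicates 1 and 2 and 82.5 in replicate 3. All these correlations are descriptions over the same 6 libraries, in which replicate 3 stood apart.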

How the data were processed

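RNA of 6 SW480 libraries was enriched with oligo(dT) beads and sequenced on the Illumina platform by the authors, who deposited FPKM values per gene symbol. The aligner, genome build and annotation are not given in the sources used here, and the labels and the methods name different library preparations. Values were taken as whole multiples of a step. Whole reads within a tolerance of 0.02 were found for 17189 of 17189 genes above 0 (100%). The search took the fewest reads that fitted, so counts of genes with few reads hold only up to a common factor. A fit is nearly always found for such genes, so this share does not show that their counts are right.

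Genes were kept where their mean reached 0.5 FPKM, which left 12884. On log2(FPKM + 0.1), limma 3.58.1 (R 4.3.3, eBayes with trend) was run, with Benjamini-Hochberg adjustment over all kept genes. A gene was called at an adjusted p under 0.05. Fold changes are on the log2(FPKM + 0.1) scale, which understates changes of low genes. The fits of MDM4 against control, without the block, and of replicate 3 were tested on simulated counts. These counts held no broad shift of replicate 3, so the test does not cover that feature of the data. The block and the difference between effects were not tested in this way. Exact permutation tests were two-sided, with the smaller one-sided p doubled (scipy 1.17.1).

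The members, the lists and the contrast of replicate 3 were chosen with earlier results of these data known. Besides the 10 members and *MDM4*, the text names of each list the called genes, at most the 4 with the largest difference, or 2 where none was called, and genes among the 5 most like the members, of which 1 is not reported here. The replicate block and the same-numbered pairs rest on the replicate numbers alone. Deviations from group means over 12884 genes correlated at 0.46, 0.45 and 0.78 between same-numbered libraries. Replicates 1 and 2 also correlated across numbers at 0.46 and 0.44, so these values set replicate 3 apart but do not pair replicates 1 and 2 by number. Positive values among replicates 1 and 2 can follow from centring on group means where replicate 3 stands apart. Genes are not independent replicates in such a correlation. Alternatives were other pseudocounts, filters and scalings, voom, a replicate block and each library left out. Gene positions are from GENCODE on GRCh38 and promoters from RefSeq.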

Additional observations from a re-analysis of the deposited data

Results flagged for a closer look

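The effect of the MDM4 plasmids on *MDM4* itself was smaller in the replicate 3 pair of libraries than in replicates 1 and 2. The difference between the effects was -1.35 on the log2 scale (SE 0.15, limma adjusted p = 0.00166), with *MDM4* 11.0-fold higher in replicate 3 and 29.7- and 26.1-fold higher in replicates 1 and 2. It rests on 1 pair of libraries in replicate 3, so the SE and p take their spread from replicates 1 and 2 and assume that replicate 3 varies alike. None of the 10 heat shock genes had such a difference called.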

How the results depend on the processing

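For MDM4 against control, 0 genes were called, against 2 with the replicate block, 29 for voom on recovered reads with the block, 2 with a term for replicate 3, 74 with replicates 1 and 2 alone, and between 0 and 21 with a library left out (21 without control replicate 3, 1 without MDM4 replicate 3). None of the 10 heat shock genes was called in 17 alternatives, the block included, and of their 170 differences 16 changed sign. With quantile normalization *HSPA8* turned to 0.04, *DNAJB1* to 0.026 and *HSF1* to 0.0041, with median ratio scaling *DNAJB1* to 0.0021, and with replicates 1 and 2 alone *HSPA8* to 0.0065 and *HSF1* to 0.008. With a library left out the differences ran from -0.18 to 0.18 for *HSPA8*, -0.022 to 0.011 for *DNAJB1*, -0.09 to 0.039 for *HSF1*, -0.018 to 0.028 for *HSPH1*, -0.0026 to 0.055 for *HSP90AA1* and -0.0044 to 0.053 for *HSP90AB1*.

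In replicate 3 against replicates 1 and 2, the 5685 called genes became 2414 to 6436 with a library left out (2846 without control replicate 3, 2414 without MDM4 replicate 3). The 3 called heat shock genes of 10 became 1 to 4 with a library left out, with 1 without control replicate 3. They became 5 under median ratio scaling, beside 5420 of all 12884 tested genes called there, so this count is no result about the list. *HSF1* was called without control replicate 2 (-0.18, limma adjusted p = 0.0214). Uncalled differences that changed sign were *HSPA1B* at -0.035 and *DNAJB1* at -0.093 with median ratio scaling, and *HSP90AA1* at -0.085 there and -0.0022 with quantile normalization. With a library left out *HSP90AA1* ran from -0.012 to 0.051 and *DNAJB1* from -0.0031 to 0.025. For the difference between effects, 25 called genes became 50 to 128 with a library left out. The causes were not tested. Of the 10 genes *HSPA1A* had the fewest reads, 596 to 1000 per library.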
